A study of Mus musculus with 18 samples.

Results

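The 10 neuropeptide genes Crh, Penk, Tac1, Pdyn, Sst, Npy, Vip, Cck, Cort and Nts were followed through the poly(A) tail fractions of mouse cortex and striatum. They were taken as a list of names, with every probe set of the array annotated to them: 11 probe sets of 28898 that carry 1 gene symbol, and 10 genes of 17097. Tac1 has 2 probe sets and each of the others has 1. Crh was on the list because of its large ELUTED over WASH difference, so its differences between fractions are given here as a description, without a test. All 10 genes passed the filter on low levels, which kept 12822 genes.

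The mice were WT, CPEB4 GT/+ or CPEB4 KO, with 2 animals per genotype, all aged 6 weeks, and cortex and striatum of each animal were dissected together. The CPEB4 protein binds mRNAs in the cytoplasm and regulates the poly(A) tails of its targets. Each animal gave an array of total RNA (INPUT), an array of RNA that left poly(U) agarose at 25% formamide (WASH, richer in short tails) and an array of RNA that left it at 90% formamide (ELUTED, richer in long tails). Strain, sex and the make of the alleles are not given in the sources used here, and with 2 animals per genotype an exact two-sided test of 2 against 2 cannot go below p = 0.333.

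Neuropeptides are cut from larger precursor proteins by convertases, packed into dense-core vesicles and released to act on G protein-coupled receptors. In cortex, several of the precursors mark classes of GABA interneurons, and in striatum others mark the direct and the indirect projection neurons. Their transcription is known to follow neuronal activity and cAMP, in the best studied case through a cAMP response element upstream of Sst. In a bulk sample, fewer cells of a type and less RNA per cell cannot be told apart.

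The upstream sequences of 3 members are shown because they carry this element or its core in members that fell in ELUTED by very different amounts. RefSeq windows of 250 bases before the start (GRCm38.p6) were matched for 8 of the 10 members, all but Crh and Penk. The searches were for the palindrome TGACGTCA and for its core, TGACG or, on the other strand, CGTCA; the palindrome holds the core on both strands. Among all 32851 windows, 17.8% held the core and 1.55% the palindrome. Of the 8 members with a window, 6 held the core (Sst, Vip, Tac1, Cck, Cort and Nts), and 1, Sst, held the palindrome. Capitals mark the matches, which are descriptions of letters and not of binding. The Sst window is chr16:23890845-23891094 on the minus strand, with the palindrome starting 48 bases before the start. The Vip window is chr10:5638968-5639217 on the plus strand, with the core 79 bases before the start. The Tac1 window is chr6:7554811-7555060 on the plus strand, with the core 197 and 43 bases before the start.
Sst: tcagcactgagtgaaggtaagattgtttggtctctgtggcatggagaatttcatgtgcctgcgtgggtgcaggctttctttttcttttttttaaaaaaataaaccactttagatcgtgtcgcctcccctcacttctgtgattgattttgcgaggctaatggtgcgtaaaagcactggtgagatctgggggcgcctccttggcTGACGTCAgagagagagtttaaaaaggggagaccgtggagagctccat
Vip: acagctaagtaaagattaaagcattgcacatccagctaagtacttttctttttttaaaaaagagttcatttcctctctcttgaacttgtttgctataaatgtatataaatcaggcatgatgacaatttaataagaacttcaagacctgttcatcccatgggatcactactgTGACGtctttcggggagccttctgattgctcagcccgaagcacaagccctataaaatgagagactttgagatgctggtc
Tac1: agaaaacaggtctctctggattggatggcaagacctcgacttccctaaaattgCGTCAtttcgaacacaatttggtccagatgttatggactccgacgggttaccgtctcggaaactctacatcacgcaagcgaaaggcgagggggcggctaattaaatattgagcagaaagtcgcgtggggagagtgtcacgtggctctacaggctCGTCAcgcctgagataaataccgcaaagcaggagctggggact

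Levels are the deposited log2 values, and differences are differences of these. Array medians lay between 6.32 and 6.48, and the 2 arrays of a group correlated across genes at r = 0.966 to 0.994. The targeted gene came first: at the Cpeb4 probe set with the highest mean, INPUT levels were 8.15 and 7.62 in WT, 7.31 and 7.002 in CPEB4 GT/+, and 6.62 and 6.91 in CPEB4 KO. The groups did not overlap, and the order follows the labels. In WASH, Cpeb4 was lower in CPEB4 KO than in WT by a log2 difference of -1.15 (limma, SE 0.12, Benjamini-Hochberg adjusted p = 0.00837). The differences of -1.12 in INPUT (adjusted p = 0.253) and -1.90 in ELUTED (0.79) did not pass. Where these probe sets lie relative to the change in the allele was not tested. The labelled tissue was checked on INPUT with marker lists: 17 of 18 GABA interneuron markers (all but Chodl; Lamp5 and Slc32a1 had the highest levels), all 15 striatal projection neuron markers on the array (Foxp1 and Pde10a highest) and all 14 cortical excitatory markers (Camk2a and Nrgn highest) lay above 5.61, the highest mean among 23 nonspecific controls. Of 12 hypothalamic markers, 9 lay above it (Oxt and Otp highest, all but Trh, Sim1 and Hmx2). So did 7 of 7 hippocampal, 6 of 8 thalamic, 5 of 6 choroid plexus and 4 of 8 pituitary markers. By mean over all 18 arrays, 12822 of 17097 genes passed the filter at 5.52, close to this level. These counts therefore cannot tell the labelled tissue from other brain tissue.

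**Figure D1:**
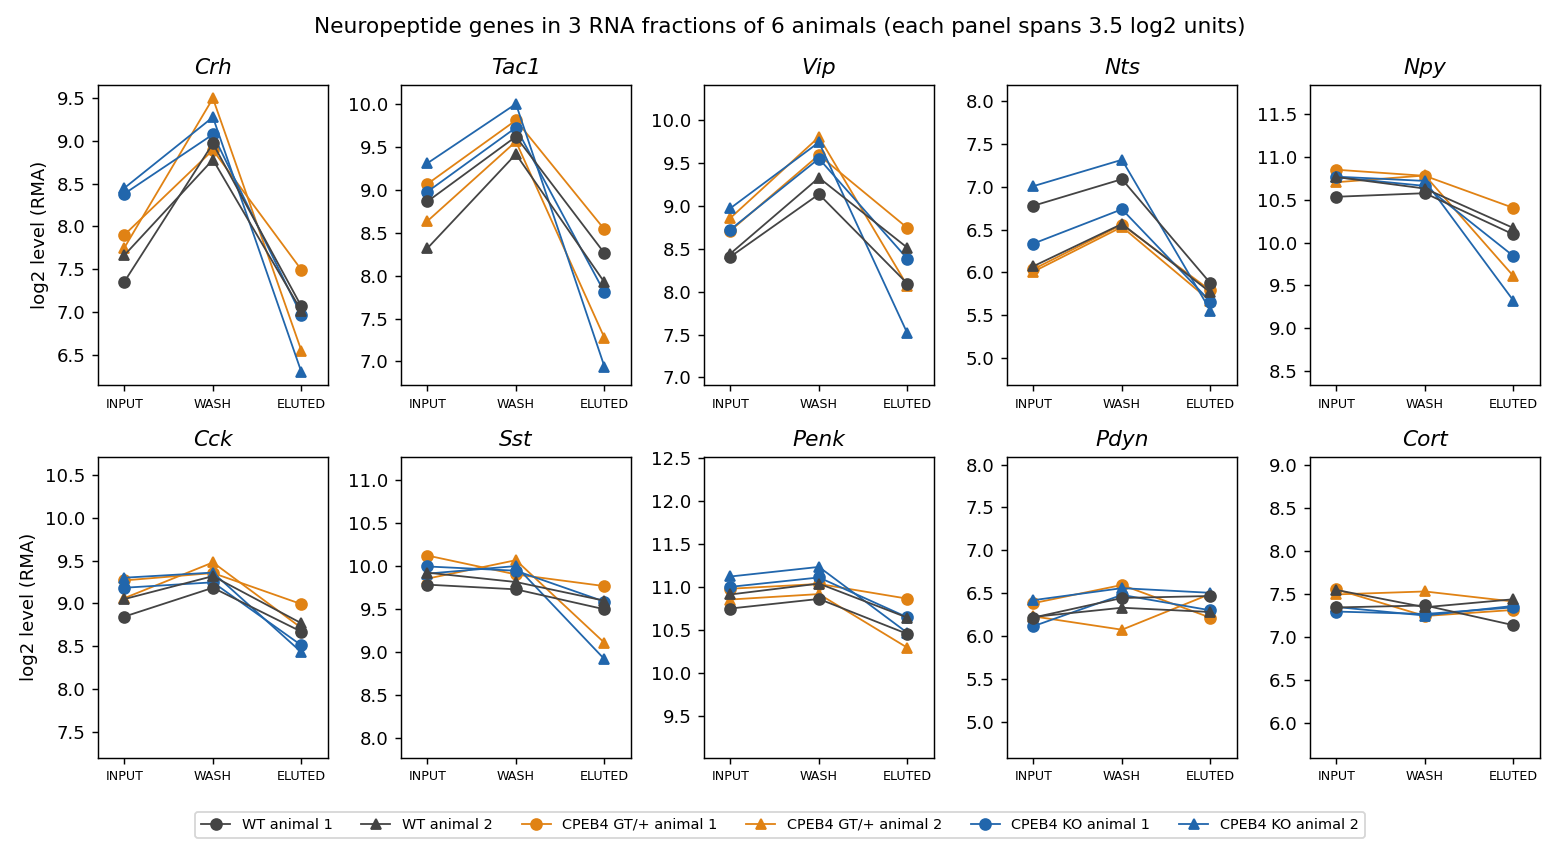
Log2 level (vertical axis) of the probe set that stands for each of the 10 genes on every array, by fraction, with 1 point per animal and lines joining the fractions of an animal; every panel spans the same number of log2 units. Crh, Tac1, Npy, Vip, Cck and Nts have all 6 ELUTED points below all 6 WASH points, while Sst, Penk, Pdyn and Cort overlap between fractions. The share of all genes separated in this way was not computed.

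Most members had less signal in the long-tail fraction than in the short-tail fraction of the same animal. For each animal the log2 WASH level was taken from the log2 ELUTED level. Apart from Crh, 7 of 9 members were lower in ELUTED (limma, Benjamini-Hochberg adjusted p under 0.05 over 12822 genes) and 0 were higher, beside 48.5% of all genes called lower and 24.9% called higher. The 9 had a median difference of -0.64, and all genes a median of -0.18 with quartiles of -0.58 and 0.20. The 2 members that did not pass were Pdyn and Cort. All arrays were normalized to each other, so each difference is relative to the other genes on the arrays. Centring the arrays on their medians moved the share of higher among all called genes from 34.0% to 49.0%. Aligning them on the hybridisation controls moved it to 2.14% of 9432 called genes. All 9 members were then lower, and the median over all genes was -0.67.

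Crh encodes corticotropin-releasing hormone, which in cortex is made by a subset of interneurons. Its WASH levels were 8.97 and 8.78 in WT, 8.89 and 9.49 in CPEB4 GT/+, and 9.07 and 9.27 in CPEB4 KO. Its ELUTED levels were 7.07 and 7.02, 7.49 and 6.55, and 6.97 and 6.30 in the same order. Every ELUTED array was below every WASH array. The ratio was -2.18 ± 0.64 (SD, n = 6), which is 4.53-fold lower in ELUTED, and ran from -2.97 to -1.40. Of all genes, 0.0312% had a lower mean ratio. Its WASH level was above INPUT by 1.16, and its ELUTED level below INPUT by a difference of -1.02, in 6 of 6 animals each.

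Tac1 encodes the precursor of substance P and neurokinin A and is a marker of direct pathway striatal neurons. Its WASH levels were 9.62 and 9.41 in WT, 9.81 and 9.56 in CPEB4 GT/+, and 9.72 and 9.999 in CPEB4 KO. Its ELUTED levels were 8.26 and 7.92, 8.54 and 7.28, and 7.81 and 6.94. No ELUTED array reached a WASH array, and the lowest ELUTED value was that of CPEB4 KO replicate 2. The ratio was -1.90 ± 0.69 (SD, n = 6), or 3.72-fold lower in ELUTED (limma SE 0.17, adjusted p = 7.65e-05). The second Tac1 probe set gave the opposite sign: it was higher in ELUTED by 0.32 (SE 0.11, adjusted p = 0.0299 over 28898 probe sets), in 6 of 6 animals. Its levels over the 18 arrays ran only from 5.42 to 6.25, close to the highest nonspecific control mean of 5.61. Averaging both probe sets gave a Tac1 ratio of -0.79.

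Vip encodes vasoactive intestinal peptide, made by interneurons that mostly contact other interneurons. Its WASH levels were 9.13 and 9.33 in WT, 9.59 and 9.80 in CPEB4 GT/+, and 9.55 and 9.74 in CPEB4 KO. Its ELUTED levels were 8.09 and 8.51, 8.74 and 8.07, and 8.38 and 7.51. The fractions did not overlap. The ratio was -1.31 ± 0.56 (SD, n = 6), or 2.47-fold lower (limma SE 0.16, adjusted p = 1.88e-04).

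Npy and Sst are made together in many cortical interneurons, Npy encoding neuropeptide Y and Sst the inhibitory peptide somatostatin. Npy had WASH levels of 10.57 to 10.78 (median 10.69) and ELUTED levels of 9.32 to 10.40 (median 9.97), with no overlap. Its ratio was -0.78 ± 0.42 (SD, n = 6; limma SE 0.12, adjusted p = 5.97e-04). Sst overlapped between fractions, at 9.73 to 10.07 in WASH and 8.92 to 9.77 in ELUTED, although ELUTED was the lower in each of the 6 animals. The Sst ratio was -0.50 ± 0.41 (SD, n = 6; limma SE 0.13, adjusted p = 0.00847), and after a further quantile normalization it was -0.23 (adjusted p = 0.0838). Cort encodes cortistatin, a relative of somatostatin that shares its receptors. Cort levels were 7.25 to 7.53 in WASH and 7.14 to 7.44 in ELUTED, its ratio was below 0 in 2 of 6 animals, and its mean ratio was 0.00095 (limma SE 0.078, adjusted p = 0.992), or -0.49 on arrays aligned on the hybridisation controls.

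Penk and Pdyn encode opioid precursors, proenkephalin of indirect pathway striatal neurons and prodynorphin of direct pathway neurons. Penk levels were 10.86 to 11.24 in WASH and 10.29 to 10.87 in ELUTED. ELUTED was lower in 6 of 6 animals, by a ratio of -0.47 ± 0.21 (SD, n = 6; limma SE 0.087, adjusted p = 0.00153). Pdyn levels were 6.08 to 6.60 in WASH and 6.22 to 6.51 in ELUTED, fully overlapping. Its mean ratio was -0.038 (limma SE 0.11, adjusted p = 0.76), below 0 in 4 of 6 animals, and without CPEB4 GT/+ replicate 2 it was -0.17 (adjusted p = 0.0452).

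Cck encodes cholecystokinin, made by cortical pyramidal cells and by some interneurons. Cck levels were 9.18 to 9.48 in WASH and 8.43 to 8.99 in ELUTED, without overlap. The ratio was -0.64 ± 0.20 (SD, n = 6; limma SE 0.081, adjusted p = 2.36e-04). Nts encodes neurotensin, which modulates dopamine signalling in striatum. Nts levels were 6.53 to 7.31 in WASH and 5.56 to 5.87 in ELUTED, again without overlap, and all ELUTED values lay close to the nonspecific controls. Its ratio was -1.08 ± 0.37 (SD, n = 6; limma SE 0.11, adjusted p = 9.46e-05).

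**Figure D2:**
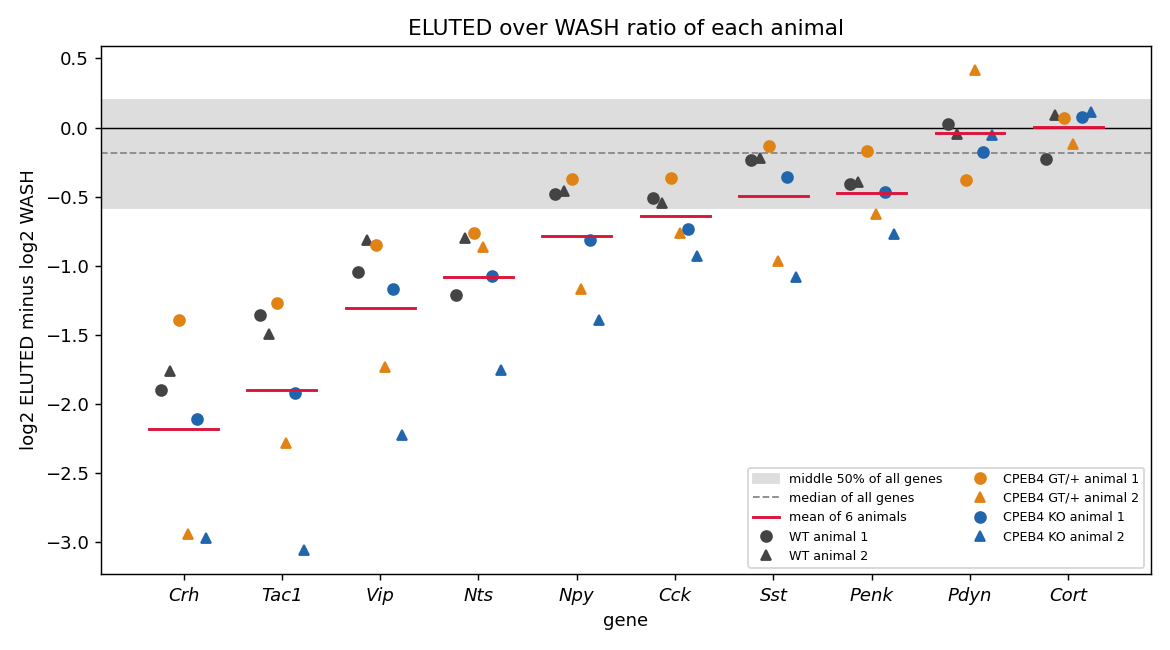
Log2 ELUTED minus log2 WASH of each animal (points) for the 10 genes, with the mean as a bar, and the median (dashed) and quartiles (grey) of all genes, -0.18 and -0.58 to 0.20. Crh (-2.18), Tac1 (-1.90) and Vip (-1.31) lie lowest, 8 genes are below 0 in all 6 animals, and Pdyn and Cort lie on both sides of 0. The share of all genes below 0 in all 6 animals was not computed.

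The ratio varied with level over all genes, so each member was also set beside genes of like mean level. The median ratio of all genes was 0.18 under a mean log2 level of 6.5 (2819 genes), -0.19 from 6.5 to 8 (4272 genes), -0.42 from 8 to 9.5 (3460 genes) and -0.26 above (2271 genes). Relative to the median of its own level band, Crh was at -1.99, Tac1 at -1.48, Nts at -1.25, Vip at -0.89 and Npy at -0.53. The remaining members lay within 0.24 of their band medians: Sst at -0.24, Cck at -0.22, Penk and Pdyn at -0.21 and Cort at 0.19. The Sst, Cck and Penk ratios were therefore close to the median of genes at their level.

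Each fraction was also set beside the unfractionated RNA. ELUTED was below INPUT for 7 of the 9 members other than Crh and above it for 0, beside 29.5% of all genes called lower and 14.6% called higher. Tac1 differed by -1.07 (adjusted p = 0.00176), Npy by -0.82 (0.000975), Nts by -0.65 (0.00368), Sst by -0.52 (0.00397), Cck by -0.44 (0.00193) and Penk by -0.38 (0.00894), each in 6 of 6 animals (limma). Vip differed by -0.47 (adjusted p = 0.0448), below INPUT in 4 of 6 animals, and this call was lost without any of WT replicate 1 (adjusted p = 0.167), WT replicate 2 (0.0822), CPEB4 GT/+ replicate 2 (0.136) or CPEB4 KO replicate 2 (-0.28, 0.153). Cort (-0.096, adjusted p = 0.263) and Pdyn (0.11, 0.28) did not pass.

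WASH was above INPUT for 4 of the 9 and below it for 0, beside 45.1% of all genes called higher and 19.5% called lower, so the share among the members was close to that of all genes. These 4 were Vip at 0.84 (adjusted p = 2.49e-05), Tac1 at 0.83 (3.71e-05), Nts at 0.42 (2.09e-04) and Cck at 0.20 (0.0133), each above INPUT in 6 of 6 animals (limma). The Cck call was lost without WT replicate 1 (0.19, adjusted p = 0.0532), without both CPEB4 GT/+ replicate 2 and CPEB4 KO replicate 2 (0.15, 0.0878), on median-centred arrays (0.097, 0.178) and after a further quantile normalization (0.057, 0.371). Npy (-0.039), Sst (-0.022), Penk (0.096), Cort (-0.097) and Pdyn (0.15) did not pass, and the scaling moved them in both directions. On median-centred arrays Npy (-0.15, adjusted p = 0.0389) and Cort (-0.20, 0.0155) were called below INPUT, as was Cort after a further quantile normalization (-0.16, 0.0444). On arrays aligned on the hybridisation controls the signs of Npy (0.23), Sst (0.25) and Cort (0.17) turned, and all 9 members were called above INPUT. So were 9818 of the 12822 genes, with a median over all genes of 0.38. Under the deposited scaling, the larger part of the Vip difference between ELUTED and WASH lay between WASH and INPUT, and the Npy difference lay between INPUT and ELUTED; with the alignment on the hybridisation controls, part of the Npy difference also lay between WASH and INPUT. The order WASH over INPUT over ELUTED held in 6 of 6 animals for Crh, Tac1, Penk, Cck and Nts, in 4 for Vip, in 2 for Sst, Npy and Cort, and in 1 for Pdyn. The share of all genes in this order was not computed. A control for RNA integrity differed between WASH and the other fractions: the 3' probe set of Actb read below its 5' probe set by a log2 difference of -0.47 to -0.31 on ELUTED arrays, -0.48 to -0.41 on INPUT arrays and -0.21 to -0.059 on WASH arrays. The same difference for Gapdh overlapped between ELUTED (-0.053 to 0.062), INPUT (-0.099 to -0.049) and WASH (-0.13 to 0.020). The part of RNA integrity in these differences was not tested.

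**Figure D3:**
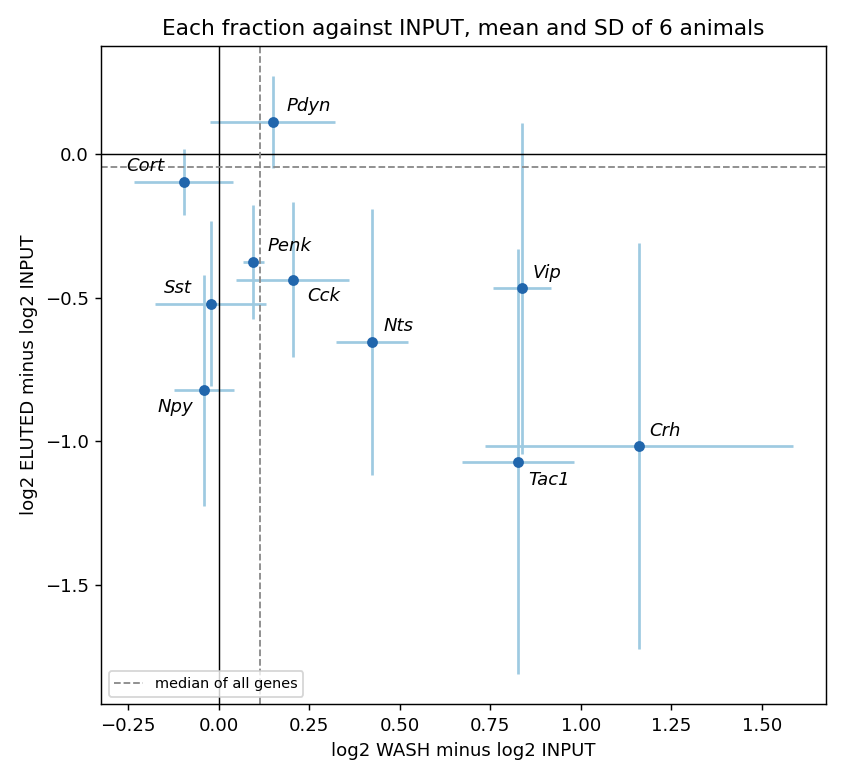
Mean log2 difference of WASH from INPUT (horizontal axis) and of ELUTED from INPUT (vertical axis) over 6 animals, 1 point per gene, with bars of 1 SD and dashed lines at the median of all genes. Crh (1.16, -1.02), Tac1 (0.83, -1.07) and Vip (0.84, -0.47) moved in both fractions, whereas Npy (-0.039, -0.82) and Sst (-0.022, -0.52) were lower in ELUTED with WASH near INPUT under the deposited scaling.

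The other genes of the peptide pathway did not all share this direction in ELUTED over WASH. Among other neuropeptide precursors, 12 of 23 kept genes (of 42 listed) were higher in ELUTED and 6 lower, with a median of 0.27 (limma calls). The higher ones included Oxt (oxytocin) at 0.75, Npff at 0.57 and Ucn (urocortin, of the Crh family) at 0.49. The lower ones were led by Grp (gastrin-releasing peptide) at -1.48, Cartpt at -1.01 and Adcyap1 (PACAP, of the Vip family) at -0.61. Of the members' receptors, 7 of 17 kept genes (of 24) were higher, with Oprd1 at 0.73, Sstr4 at 0.59 and Vipr1 at 0.52, and 2 lower, Sstr1 at -0.40 and Ntsr1 at -0.28, around a median of 0.12. Processing and dense-core vesicle genes went the way of the members: 17 of 24 kept genes (of 26) were lower and 1 higher (Ptprn, 0.20), with a median of -0.49. Scg5, the chaperone of the convertase PC2, was lowest at -1.22, followed by Crhbp, which binds the Crh peptide, at -1.01 and Cadps, which primes dense-core vesicles, at -0.99. Against all genes, where 48.5% were lower and 24.9% higher, these counts describe the lists and were not tested as sets. The lists were not matched for mean level, with which the ratio varied over all genes. Band medians were 0.18 under a level of 6.5 and -0.42 from 8 to 9.5. The named genes had mean levels of 5.98 to 8.31 among precursors, 6.79 to 10.09 among receptors and 8.41 to 11.11 among processing genes.

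In total RNA, no member passed the test between genotypes, and Crh came nearest. Crh INPUT levels were 7.36 and 7.67 in WT, 7.90 and 7.75 in CPEB4 GT/+, and 8.38 and 8.45 in CPEB4 KO. The 3 groups did not overlap and stood in that order. CPEB4 KO exceeded WT by 0.90 (limma SE 0.13, adjusted p = 0.212, unadjusted p = 1.16e-04), or 1.87-fold. Without CPEB4 KO replicate 2 the difference was 0.87 (adjusted p = 0.0239), in a fit that takes the spread of the 1 CPEB4 KO animal left from the other groups and in which 269 of the 12822 genes were called (260 higher), against 0 with all animals. Over the alternatives the adjusted p for Crh ran from 0.00184 to 0.537.

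Tac1 INPUT levels were 8.86 and 8.32 in WT, 9.07 and 8.63 in CPEB4 GT/+, and 8.98 and 9.31 in CPEB4 KO, a CPEB4 KO minus WT difference of 0.55 (limma SE 0.22, adjusted p = 0.441). Vip INPUT levels were 8.41 and 8.44, 8.71 and 8.86, and 8.72 and 8.97 in the same order, a difference of 0.42 (SE 0.12, adjusted p = 0.388). Both CPEB4 KO animals were above both WT animals for each gene. Cck (0.29, adjusted p = 0.446) and Penk (0.23, 0.479) did not overlap either. Sst, Npy, Nts, Pdyn and Cort overlapped, at 0.10, 0.12, 0.25, 0.047 and -0.12.

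Over the 10 members, 0 were called in INPUT for CPEB4 KO against WT by limma, beside 0% of all genes, and 4 (Crh, Tac1, Vip and Cck) had an unadjusted p under 0.05, beside 10.9%. The animals did not overlap with CPEB4 KO higher for 5 members and lower for 0, beside 24.7% and 18.4% of all genes. For CPEB4 GT/+ against WT, which shares the WT animals, 0 members and 0% of genes were called by limma and 2 members had an unadjusted p under 0.05 (Vip 0.36 and Crh 0.32), beside 3.42%. There, 4 members were higher without overlap and 1 (Nts) lower, beside 16.9% and 15% of genes. For CPEB4 KO against CPEB4 GT/+ the limma calls were again 0 and 0%, with 2 members under 0.05 (Nts 0.65 and Crh 0.59) beside 8.13% of genes, 3 higher and 1 lower without overlap, beside 22.8% and 15.2%. In the summed INPUT signal, GABA interneuron markers were 13.64 to 13.67 (log2) in WT, 13.61 to 13.66 in CPEB4 GT/+ and 13.68 to 13.80 in CPEB4 KO. Striatal projection neuron markers were 13.45 to 13.55, 13.52 to 13.61 and 13.54 to 13.69, and hippocampal markers 11.47 to 11.61, 11.37 to 11.62 and 11.71 to 11.86. Endothelial and mural markers were 11.47 to 11.52 in WT and 11.74 to 12.16 in CPEB4 KO, microglia markers 11.19 to 11.37 and 11.54 to 11.55, choroid plexus markers 9.64 to 11.46 and 11.55 to 11.98, and pituitary markers 9.05 to 9.31 and 8.76 to 8.78. In CPEB4 GT/+ these sums were 11.48 to 11.49, 11.31 to 11.41, 8.90 to 11.66 and 8.72 to 8.84 in that order. The pituitary sum was thus below WT without overlap in CPEB4 GT/+ too. Pituitary values were lower in CPEB4 KO than in WT without overlap. Values of the GABA interneuron, hippocampal, endothelial, microglia and choroid plexus lists were higher in CPEB4 KO than in WT without overlap. Among single genes, 24.7% were higher and 18.4% lower without overlap in the same comparison. Only 4 of the 8 pituitary markers on the array lay above the highest nonspecific control mean of 5.61. Among choroid plexus markers, Ttr had a mean INPUT level of 10.45, against 6.58 for Clic6, the next highest. In the GABA interneuron list, Lamp5 (11.72), Slc32a1 (10.98), Gad1 (10.71) and Gad2 (10.64) had the highest mean INPUT levels, against 8.10 for Lhx6. These genes weigh most in the summed signal. How far this sum reads interneurons, in tissue that includes striatum, was not tested. The striatal, cortical excitatory (14.03 to 14.16 and 14.09 to 14.19), hypothalamic (10.09 to 10.75 and 9.97 to 10.37), thalamic (10.41 to 10.85 and 10.79 to 10.84), astrocyte (13.86 to 13.94 and 13.90 to 13.93) and oligodendrocyte sums (13.498 to 13.498 and 13.47 to 13.52) overlapped. The part of these cell types in the Crh difference was not tested.

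**Figure D4:**
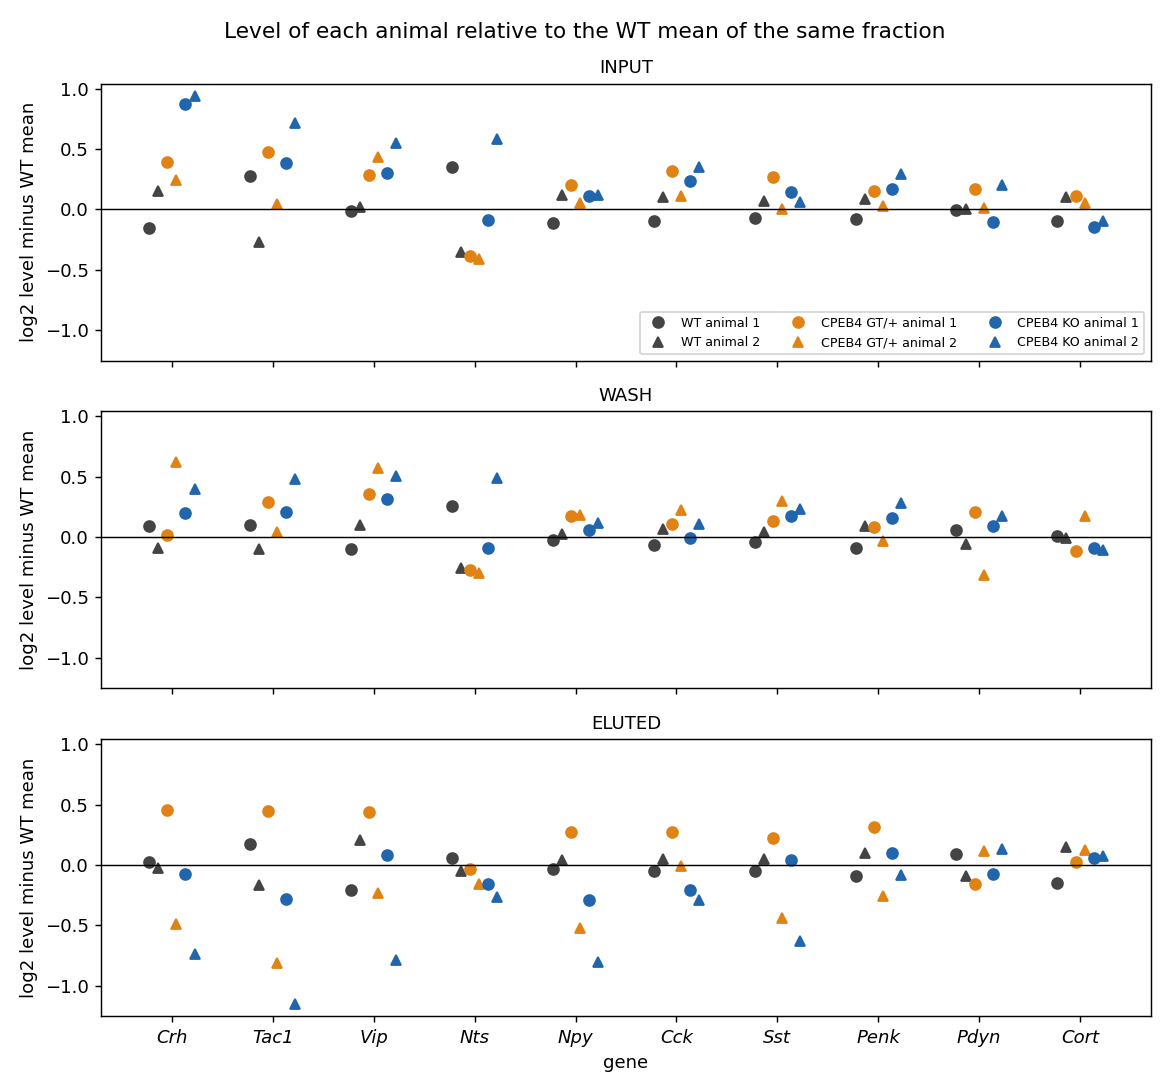
Log2 level of each animal minus the WT mean of the same fraction, for the 10 genes in INPUT, WASH and ELUTED. In INPUT both CPEB4 KO animals lie above WT for Crh, Tac1, Vip, Cck and Penk. In ELUTED both lie below WT for Crh, Tac1, Npy, Cck and Nts. CPEB4 GT/+ replicate 2 lies below both WT animals there for Crh, Tac1, Npy and Nts, and also for Sst, Penk and Vip.

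Within the fractions the genotype differences had no member past the test. In WASH, 0 of 10 members were called for CPEB4 KO against WT by limma, beside 0.0468% of genes, and 2 had an unadjusted p under 0.05 (Vip 0.41 and Tac1 0.35), beside 5.83%. Without overlap, 7 members were higher and 1 (Cort) lower in CPEB4 KO, beside 22.8% and 14% of genes. For CPEB4 GT/+ against WT in WASH, limma called 0 members and 0% of genes, 1 member had an unadjusted p under 0.05 (Vip, 0.47, limma adjusted p = 0.752), beside 6.26%, and 4 were higher and 1 (Nts) lower without overlap, beside 23.7% and 15.3%. In ELUTED, 0 members were called for CPEB4 KO against WT by limma and 0 had an unadjusted p under 0.05, beside 0.0078% and 5.94% of genes. Of the members, 5 (Crh, Tac1, Npy, Cck and Nts) were lower without overlap and 0 higher, beside 26.5% and 22.5%. For CPEB4 GT/+ against WT in ELUTED both member counts were 0 by limma, beside 0% and 0.889% of genes.

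The ELUTED over WASH ratio was lower on average in CPEB4 KO than in WT for 9 of 10 members, and no difference passed the test. Over all genes the median of this difference was -0.040, with quartiles of -0.24 and 0.13. The share of all genes below 0 was not computed. Tac1 ratios were -1.36 and -1.49 in WT, -1.27 and -2.29 in CPEB4 GT/+, and -1.92 and -3.06 in CPEB4 KO. The CPEB4 KO animals lay below the WT animals, and the CPEB4 GT/+ pair spanned both. The CPEB4 KO minus WT difference for Tac1 was -1.06 (limma SE 0.41, unadjusted p = 0.0327, adjusted p = 0.756). Crh ratios were -1.90 and -1.76, -1.40 and -2.94, and -2.11 and -2.97, a difference of -0.71 (SE 0.47, adjusted p = 0.765). Vip differed by -0.77, Npy by -0.64, Sst by -0.50, Nts by -0.41, Cck by -0.30, Penk by -0.21, Pdyn by -0.10 and Cort by 0.16.

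By limma 0 members and 0% of genes were called for this difference, 1 member (Tac1) had an unadjusted p under 0.05, beside 6.17% of genes, and 8 members were lower and 0 higher without overlap, beside 31.2% and 20.6%. For CPEB4 GT/+ against WT 0 members were called and 0 had an unadjusted p under 0.05 (limma), beside 0% and 0.897% of genes. For CPEB4 KO against CPEB4 GT/+ 0 were called and 1 (Nts, -0.60) had an unadjusted p under 0.05, beside 0% and 1.85%. The spread of the ratio over all genes differed between animals: its standard deviation was 0.485 and 0.412 in WT, 0.409 and 0.788 in CPEB4 GT/+, and 0.596 and 0.758 in CPEB4 KO. With every animal's ratios scaled to 1 spread, the CPEB4 KO minus WT difference was -0.24 for Tac1, -0.22 for Vip and 0.21 for Crh. The other members are not given under this scaling. Without the 2 animals of the widest ratios (CPEB4 GT/+ replicate 2 and CPEB4 KO replicate 2) it was -0.49 for Tac1, -0.24 for Vip and -0.28 for Crh.

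**Figure D5:**
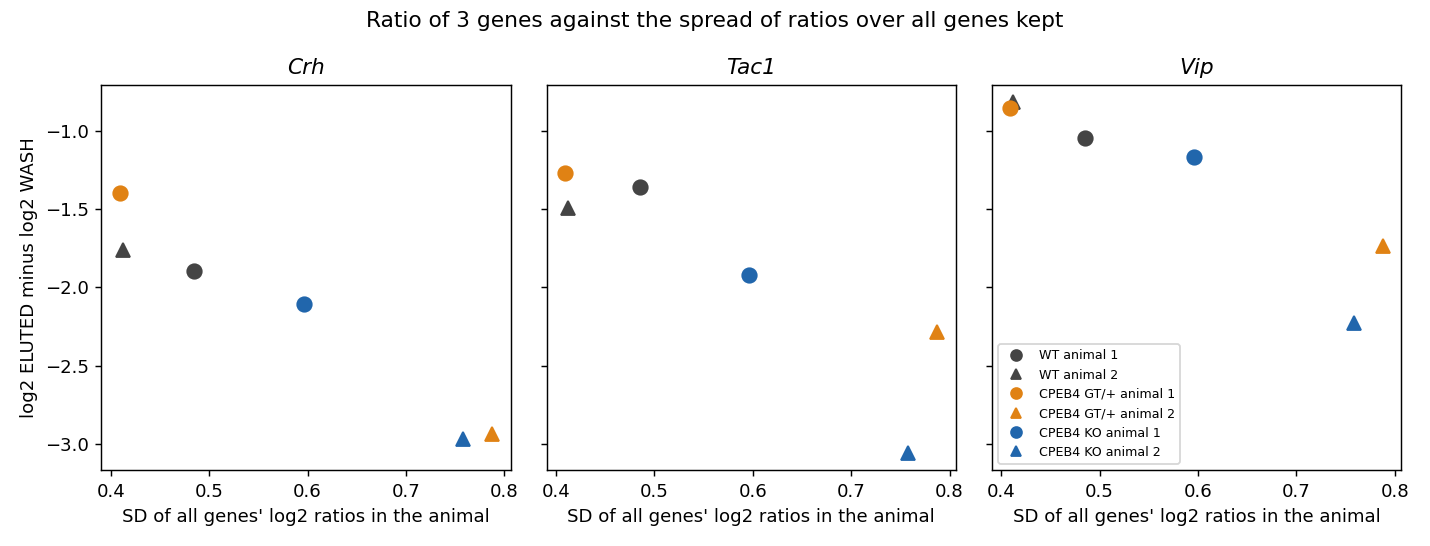
Log2 ELUTED minus log2 WASH of Crh, Tac1 and Vip in each animal (vertical axis) against the standard deviation of the ratio over all genes kept in that animal (horizontal axis). The animals at 0.758 and 0.788 have the lowest or next lowest ratio for each of the 3 genes.

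Across the 18 arrays the members fell into those whose signal followed the fractions and those whose signal did not. The latter were Pdyn, at a low mean level of 6.35, and Cort, at 7.37. Pearson's r over 18 arrays, which share animals and fractions, was 0.95 between Crh and Tac1, 0.95 between Crh and Vip, and 0.96 between Sst and Npy, and it was near 0 between Crh and Pdyn (-0.00070) and between Crh and Cort (-0.071). By the same measure the genes most like Crh were Rps19bp1 (0.988), Myl12a (0.988) and Tti2 (0.985). Those most like Tac1 were Vps4a (0.983), Cmas (0.982) and Eif6 (0.980), and those most like Vip were Ube2g1 (0.976), Tesc (0.976) and Ube2w (0.975). Npy was most like Mif (0.986), Uqcrq (0.985) and Rpl12 (0.985), and Sst was most like Npy (0.961), Rps28 (0.956) and Ppdpf (0.942). Penk was most like Mapk8ip1 (0.957), Josd1 (0.954) and Tyro3 (0.949), Cck like Myl4 (0.965), Ube2a (0.959) and 1110008P14Rik (0.958), and Nts like Pnp2 (0.930), Vat1l (0.927) and Kank1 (0.926). Pdyn and Cort had weaker likenesses, Pdyn with Mboat1 (0.849), Smyd3 (0.787) and Loxl1 (0.784), and Cort with Gtpbp8 (0.779), Chrd (0.712) and Rimbp2 (0.690).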

How the data were processed

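The deposited table holds log2 values per probe set, which the authors made with RMA, per the submitters' processing notes; version, settings and annotation are not given in the sources used here. Of 45141 probe sets, 104 are controls, the analysis used the 28898 that carry 1 gene symbol in the platform annotation and left out 551 with more than 1 and 15588 with none. The probe set of highest mean over the 18 arrays stood for its gene, and the lowest 25% of 17097 genes (at or below 5.52) were left out.

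For each of 13 comparisons, limma 3.58.1 in R 4.3.3 (linear models, contrasts and empirical Bayes, no trend) was fitted over all 6 animals with genotype means and 3 residual degrees of freedom, on levels within a fraction or on within-animal differences between fractions. Tests were two-sided, with p-values adjusted by Benjamini-Hochberg over all 12822 genes kept, and those under 0.05 are calls. A second fit covered all 28898 probe sets. Replicates are animals by the labels, and the number of arrays limits the precision. RMA puts the arrays on 1 scale, so the total amount of RNA in a fraction was not measured.

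Named are Cpeb4, every member, up to 3 called genes in each direction of each pathway list, the 2 highest markers of a list, and the 3 genes most like each member. The members and lists were chosen with earlier results of these data known, and the Crh fraction differences have no test for that reason. On simulated data of 12822 genes, ELUTED over WASH recovered 64% of log2 differences of 0.5, 92% of 1 and 100% of 2, and the CPEB4 KO against WT ratio difference recovered 0%, 16% and 62%. The simulation changed 50 genes at each size and gave every animal the same spread. In the data, ELUTED over WASH called 48.5% of genes lower and 24.9% higher, and the spread differed between animals. These rates therefore cannot be carried over to the tests reported here. Alternatives were other probe set rules, filters and scalings, a trend, blocks and left-out animals. Figures used Python 3.11.15 and matplotlib 3.10.9.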

Additional observations from a re-analysis of the deposited data

Results flagged for a closer look

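The ELUTED minus INPUT difference of Cort lay on opposite sides of 0 by genotype. It averaged -0.16 in WT (2 of 2 animals below 0), -0.16 in CPEB4 GT/+ (2 of 2 below 0) and 0.031 in CPEB4 KO (2 of 2 above 0). The 2 CPEB4 KO values were close to 0, at 0.049 and 0.013. Cort was picked from the members for this split, and the share of all genes with such a split was not computed. The difference between the genotypes was not tested.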

How the results depend on the processing

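The 7 calls in ELUTED over WASH and the 7 in ELUTED over INPUT ranged from 6 to 9 and from 6 to 7 over the alternatives run. Aligning the arrays on the hybridisation controls moved the median of all genes to -0.67 in ELUTED over WASH, 0.38 in WASH over INPUT and 0.16 in INPUT for CPEB4 KO against WT. Under it the signs turned for Cort in ELUTED over WASH (-0.49) and in WASH over INPUT for Sst (0.25), Npy (0.23) and Cort (0.17). All 9 members were called higher in WASH over INPUT, as were 9818 of the 12822 genes. Crh was the 1 member called in INPUT for CPEB4 KO against WT (1.04, limma adjusted p = 0.00184) and against CPEB4 GT/+ (0.74, 0.0198). In these 2 comparisons 162 and 228 of all genes were called (155 and 222 higher), against 0 under the deposited scaling. Crh ran from 0.75 to 1.06 over the alternatives for CPEB4 KO against WT. Leaving out 1 animal at a time gave 0 to 1 members called there (Crh without CPEB4 KO replicate 2, with 269 of all genes called), and 0 members in every other genotype comparison. The Vip call in ELUTED over INPUT was lost under 10 alternatives (adjusted p 0.0554 to 0.228); the cause was not tested.

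Same-numbered animals of different genotypes correlated at -0.33 to 0.51 in their deviations, and the numbers were not taken as pairs in the main fits. The highest values were those of CPEB4 GT/+ with CPEB4 KO. They were 0.51 in ELUTED over WASH, 0.22 in ELUTED and 0.19 in WASH, against -0.039 in INPUT. Why this pair deviated together was not tested. With the replicate block, 7, 7 and 5 members were called between fractions and 0 between genotypes; the 1 call it added was Pdyn in WASH over INPUT (0.15, adjusted p = 0.0390). Without pairing fractions by animal, 7 members were called in ELUTED over WASH. Levels near the nonspecific controls (Nts in ELUTED, the second Tac1 probe set) limit the ratios of those probe sets. Pdyn, at a mean level of 6.35, was also low, and whether this limits its ratio was not tested.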
